A study of Mus musculus with 14 samples.

Results

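The 8 genes described here encode caspases and proteins that switch caspases on: Casp2, Casp6, Casp8, Casp9, Apaf1, Fadd, Htra2 and Diablo. They were chosen by symbol, with earlier results of these data known. Of the 22626 probesets tested, 12 carried one of these 8 symbols, out of 12393 genes with a probeset of their own. RNA of B16-F10 cells, a melanoma line of the C57BL/6J mouse, was measured on 14 Affymetrix mouse expression arrays, and all groups came from this one line. The Lipofectamine group (3 arrays) received Lipofectamine without plasmid for 3 h in Opti-MEM and then recovered for 30 min in medium with serum, so the liposomes and the change of medium cannot be told apart. The heat shock group (3 arrays) was held at 42.5 °C for 1 h and recovered for 30 min. The benzyl alcohol group (3 arrays) received the membrane fluidizer benzyl alcohol at 40 mM for 1 h. Its recovery is given as 3 h in the sample descriptions and as 30 min in the description of the design. The control group (5 arrays) was left untreated. The arrays are labelled as biological replicates, and nothing says whether they came from separate days, so the p-values measure only the spread between these arrays.

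Caspases are proteases that lie idle in healthy cells and cut each other and many other proteins during apoptosis. In the mitochondrial route, cytochrome c leaves the mitochondrion and binds Apaf1, which assembles into the apoptosome and activates caspase-9. Htra2 and Diablo leave the same organelle and relieve the block that inhibitor of apoptosis proteins put on caspases. In the death receptor route the adaptor Fadd gathers caspase-8 at the receptor. Caspases are kept as inactive precursors and most of this control acts on the proteins, which arrays of RNA do not measure.

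After Lipofectamine Fadd was lower and 1 of the 2 Apaf1 probesets higher, both Apaf1 probesets were lower after heat shock, and Casp2 separated benzyl alcohol from both other treatments, so the 250 bases before the annotated start of these 3 genes are shown, 5′ to 3′ on the strand of the gene. They come from RefSeq on build GRCm38.p6, which held such a stretch for 7 of the 8 genes (all except Htra2). Capitals mark GCGTG, the core of the site bound by the aryl hydrocarbon receptor, read on either strand (CACGC on the reverse one).
Apaf1 promoter, chr10:91082744-91082993, minus strand: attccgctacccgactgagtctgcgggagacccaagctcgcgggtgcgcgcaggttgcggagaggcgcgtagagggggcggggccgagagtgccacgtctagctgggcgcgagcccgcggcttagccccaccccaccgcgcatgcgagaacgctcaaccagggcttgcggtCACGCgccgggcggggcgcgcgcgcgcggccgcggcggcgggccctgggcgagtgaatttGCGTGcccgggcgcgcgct
Fadd promoter, chr7:144582442-144582691, minus strand: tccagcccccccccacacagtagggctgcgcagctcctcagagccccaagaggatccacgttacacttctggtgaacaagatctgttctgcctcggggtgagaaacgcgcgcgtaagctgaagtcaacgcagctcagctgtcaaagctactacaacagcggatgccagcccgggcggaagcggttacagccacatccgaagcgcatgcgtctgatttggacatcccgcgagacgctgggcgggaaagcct
Casp2 promoter, chr6:42264735-42264984, plus strand: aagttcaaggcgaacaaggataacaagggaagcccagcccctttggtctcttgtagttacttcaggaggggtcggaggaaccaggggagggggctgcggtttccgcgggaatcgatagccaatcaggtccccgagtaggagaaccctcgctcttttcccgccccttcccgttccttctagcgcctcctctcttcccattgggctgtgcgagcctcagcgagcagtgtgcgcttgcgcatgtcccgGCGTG
In these letters Apaf1 held GCGTG at -79 (as CACGC) and at -19, counted back from the start to the first base of the match, Casp2 held it at -5, and Fadd held none. Casp9 carried 2 matches and Diablo 1, and the stretches of Casp6 and Casp8 carried none, whereas 28.2% of 32851 mouse promoters of the same length had at least 1. The letters of paired heat shock units, GAANNTTC (6.69% of promoters) and TTCNNGAA (7.17%), were in none of the 7 stretches on either strand. The SP1 motif GGGCGG, read on both strands and found in 32.7% of promoters, occurred 4 times before Casp9, 2 times before Apaf1 and Fadd, once before Casp2, Casp6 and Diablo, and not before Casp8. The Apaf1 stretch had a GC content of 75.6% and 42 CpG, Fadd and Casp2 had 60.4% GC, Casp8 had 39.6%, and the median of all promoters was 52.4%. These matches are a description of the letters and were not tested against the expression values.

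The deposited values are log2 signals after robust multi-array averaging (RMA), in which each probeset has 1 value per array, and a difference of 1 is a doubling. Array medians lay between 7.03 and 7.12. The 12 probesets averaged 6.36 (the dimmer one of Diablo) to 9.87 (Casp2), beside a median of 7.08 over all probesets. Levels of different probesets depend on their probes and were not compared. The melanocyte markers were bright (6 genes, means of 10.4 to 13.2), and epithelial, fibroblast and macrophage markers were at 3.46 to 8.13. As a check of the treatments, Hspa1b (inducible Hsp70) was higher than in control by 1.94 with Lipofectamine, 5.17 with heat shock and 4.0 with benzyl alcohol on the log2 scale, and the benzyl alcohol arrays were uneven (11.10, 9.46 and 11.45). Control arrays 1 and 3 stood apart from control arrays 2, 4 and 5 in 5 of the 12 probesets, those of Casp2, Casp6 and Casp8, the brighter one of Casp9 and the brighter one of Diablo. The labels do not name this split, which was drawn from the array values themselves. In these probesets leaving out either side shifts the control mean by construction, so calls gained that way are a description only. How many of all probesets show it was not counted, so the 5 of 12 cannot be set against a share. Where a gene has a pair of probesets they are called its brighter and dimmer probeset by mean signal.

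Set against control, 4 of the 12 probesets passed an adjusted p of 0.05 after Lipofectamine, 4 after heat shock and 0 after benzyl alcohol (limma). Lipofectamine was accompanied by 1 higher (Apaf1) and 3 lower (Fadd and both of Htra2), and heat shock by 4 lower (both of Apaf1 and both of Htra2). Among all 22626 probesets the same test called 4.88% after Lipofectamine (1.78% higher and 3.1% lower), 5.96% after heat shock (1.05% higher and 4.91% lower) and 1.39% after benzyl alcohol (0.689% higher and 0.698% lower). When the deposited values were quantile normalized once more, the higher ones made up 46.6% of all calls after Lipofectamine (36.4% as deposited) and 32.4% after heat shock (17.6%). The median difference of the 12 probesets was near that of all probesets after Lipofectamine (0.005 against -0.019) and benzyl alcohol (-0.001 against 0.016), and was -0.157 against 0.027 after heat shock. At an unadjusted p under 0.05 the counts were 6, 5 and 3 of 12, where 18.8%, 22.8% and 13.4% of all probesets passed. All 3 comparisons share the 5 control arrays. Because the genes were chosen with earlier results of these data known, these counts beside the shares are no test of the gene family. In RNA from whole cultures, fewer cells that express a gene and less RNA of it per cell cannot be told apart.

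**Figure D1:**
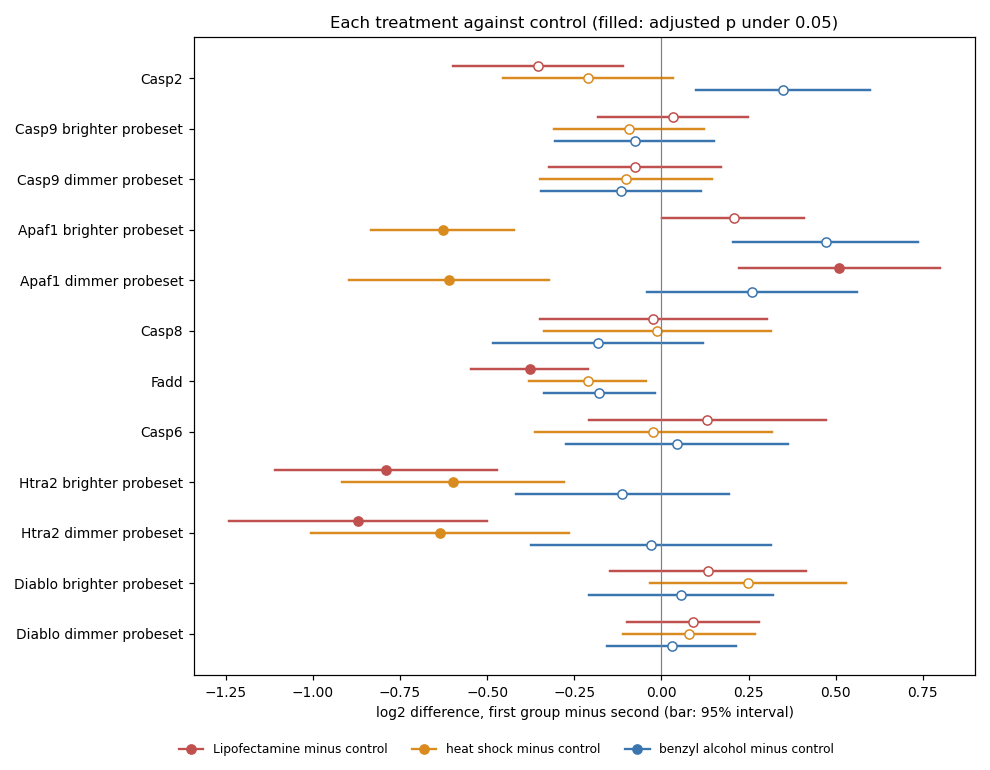
Log2 difference of each of the 12 probesets from control (x axis) after Lipofectamine, heat shock and benzyl alcohol, with 95% intervals from limma and filled points for an adjusted p under 0.05. Heat shock lies left of 0 and both other treatments right of it for Apaf1, and Lipofectamine and heat shock lie left of 0 for Htra2, where benzyl alcohol lies near 0.

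Apaf1, the scaffold of the apoptosome, fell with heat shock and was higher with Lipofectamine at its dimmer probeset. The brighter probeset (1452870_at) read 8.36, 8.33 and 8.07 in the Lipofectamine arrays, 7.54, 7.42 and 7.30 after heat shock, 8.78, 8.14 and 8.63 after benzyl alcohol, and 8.05, 8.02, 8.10, 7.99 and 8.07 in control. The 3 heat shock arrays lay below all others. In the dimmer probeset (1450223_at) the Lipofectamine arrays read 8.18, 8.37 and 8.14, the heat shock arrays 6.95, 7.24 and 7.13, the benzyl alcohol arrays 8.27, 7.85 and 7.81, and the control arrays 7.81, 7.80, 7.28, 7.86 and 7.83. Here too heat shock was lowest in every array, although control array 3, at 7.28, came close to the highest heat shock value. Heat shock lowered the brighter probeset by 1.55-fold (log2 difference -0.63, SE 0.0948, adjusted p = 0.00318) and the dimmer one by 1.53-fold (-0.61, SE 0.134, adjusted p = 0.0208). The brighter probeset kept its call in all 20 alternative settings (-0.69 to -0.57). The call of the dimmer one was lost without heat shock array 1, 2 or 3 (adjusted p = 0.0994, 0.0636 and 0.0842), without control array 4 (0.054) and without control arrays 2, 4 and 5 together (0.133). It was also lost with the replicate number as a block (0.151).

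After Lipofectamine the dimmer Apaf1 probeset was 1.42-fold higher than in control (0.51, SE 0.134, adjusted p = 0.0449), with no overlap between the groups. This call was lost without any 1 of the Lipofectamine arrays (adjusted p = 0.139, 0.133 and 0.0953), of the heat shock arrays, which share the fit (0.0588, 0.0645 and 0.0703), or of control arrays 2, 4 and 5 (0.0653, 0.0642 and 0.0615). With all arrays kept it was also lost with a variance trend with intensity (0.0509) and with the replicate number as a block (0.0909). Its unadjusted limma p of 0.00198 missed the 0.001 of the methods. The brighter probeset differed by 0.21 (95% interval 0.003 to 0.41, adjusted p = 0.259), its groups overlapped, and the pair of probesets therefore gave different calls. With array weights, whose estimation stopped before it converged, the brighter probeset differed by 0.32 and passed (adjusted p = 0.000747). With benzyl alcohol the brighter probeset differed by 0.47 (SE 0.125, adjusted p = 0.0785) and the dimmer one by 0.26 (adjusted p = 0.469). Benzyl alcohol array 2, which had the lowest Hspa1b signal of its group, was also lowest at the brighter Apaf1 probeset, and without it this difference was 0.66 (adjusted p = 0.00577). With all arrays kept the difference also passed with array weights (0.53, adjusted p = 0.0119) and after quantile normalization (0.49, adjusted p = 0.0246). At the dimmer probeset array 3 was lowest (7.81, against 7.85 in array 2), and the difference passed in none of the 23 alternative settings. Whether the low Hspa1b signal and the low Apaf1 signal are linked was not tested. Over the 14 arrays the pair correlated with r = 0.793, as a description only, since they share RNA and group differences.

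Apaf1 also set the treatments apart from each other. Lipofectamine exceeded heat shock by 1.78-fold at the brighter probeset (0.83, SE 0.106, adjusted p = 0.000831) and by 2.17-fold at the dimmer one (1.12, SE 0.149, adjusted p = 0.0012). Benzyl alcohol exceeded heat shock by 2.14-fold (1.10, SE 0.14, adjusted p = 0.000595) and 1.83-fold (0.87, SE 0.158, adjusted p = 0.00681). All 4 calls held in every alternative setting. Benzyl alcohol and Lipofectamine were not separated (0.26, 95% interval -0.03 to 0.56 at the brighter probeset, and -0.25, 95% interval -0.59 to 0.09 at the dimmer one). By group mean of the brighter probeset the order was benzyl alcohol (8.52), Lipofectamine (8.25), control (8.05) and heat shock (7.42), and only control and heat shock, among neighbours in this order, differed by the test. The order at the dimmer probeset was Lipofectamine (8.23), benzyl alcohol (7.98), control (7.72) and heat shock (7.11).

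Ikbip overlaps Apaf1 in the RefSeq annotation. Its probeset differed from control by -0.32 after Lipofectamine, by -0.02 after heat shock and by 0.25 after benzyl alcohol, and none of these passed (adjusted p = 0.326, 0.951 and 0.673).

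Casp9 encodes the initiator caspase that the apoptosome activates, and no difference of it passed in any comparison. Its brighter probeset (1426125_a_at) stayed between 7.01 and 7.47 in all 14 arrays and its dimmer one (1437537_at) between 6.44 and 6.91. The 6 differences from control ran from -0.12 to 0.03, and their 95% intervals ended at -0.35 and 0.25 at the widest. The pair did not move together over the 14 arrays (r = -0.197).

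Htra2, a mitochondrial serine protease that can displace inhibitor proteins from caspases, had the largest differences from control of the 8 genes after Lipofectamine. Its brighter probeset (1460495_s_at) read 9.07, 9.55 and 8.93 with Lipofectamine, 9.54, 9.27 and 9.32 with heat shock, 10.01, 9.87 and 9.71 with benzyl alcohol, and 9.78, 9.82, 10.00, 10.00 and 10.29 in control. Every Lipofectamine and heat shock array lay below every control array, while the benzyl alcohol arrays overlapped with control. Its dimmer probeset (1436269_s_at) read 7.58, 7.98 and 7.36 with Lipofectamine, 8.31, 7.53 and 7.78 with heat shock, 8.58, 8.39 and 8.46 with benzyl alcohol, and 8.39, 8.39, 8.61, 8.43 and 8.72 in control. The groups fell apart in the same way, with heat shock array 1 only just below control. Both probesets carry the suffix _s_at, whose probes can match more than 1 transcript. They followed each other over the 14 arrays (r = 0.956) and so are not separate evidence if they read the same transcripts.

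Lipofectamine lowered Htra2 by 1.73-fold at the brighter probeset (-0.79, SE 0.148, adjusted p = 0.00966) and by 1.83-fold at the dimmer one (-0.87, SE 0.172, adjusted p = 0.0126). Without Lipofectamine array 1 the adjusted p was 0.0693 and 0.075, and without array 3 it was 0.0568 and 0.0715. With the replicate number as a block it was 0.0977 and 0.101. Heat shock lowered Htra2 by 1.51-fold (-0.60, SE 0.148, adjusted p = 0.0323) and 1.55-fold (-0.63, SE 0.172, adjusted p = 0.046). These calls were close to the threshold. The brighter probeset lost its call without Lipofectamine array 1 (0.0508), heat shock array 1, 2 or 3 (0.0684, 0.16 and 0.136) or control array 4 or 5 (0.0726 and 0.0697). The dimmer one lost it without Lipofectamine array 1 (0.0705), heat shock array 2 or 3 (0.24 and 0.175) or control array 2, 4 or 5 (0.0578, 0.0812 and 0.102), and after quantile normalization (-0.53, adjusted p = 0.0827). Both heat shock calls were lost with control arrays 2, 4 and 5 left out together (0.102 and 0.104) and with the replicate block (0.256 and 0.266). Their unadjusted limma p of 0.00129 and 0.00254 missed the 0.001 of the methods. The direction stayed in every setting.

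With benzyl alcohol Htra2 differed from control by -0.11 (95% interval -0.42 to 0.19) and -0.03 (-0.38 to 0.31). Benzyl alcohol exceeded Lipofectamine by 1.6-fold (0.68, SE 0.161, adjusted p = 0.0131) and 1.79-fold (0.84, SE 0.181, adjusted p = 0.00805). The dimmer probeset kept this call in all 23 settings, and the brighter one lost it without Lipofectamine array 1 or 3 (0.0625 and 0.0609) or benzyl alcohol array 1 (0.0553). Benzyl alcohol also lay above heat shock in every array, but the differences of 0.49 and 0.60 missed the threshold (adjusted p = 0.0803 and 0.0559) and passed it in 5 and 8 of the 23 alternative settings. Lipofectamine and heat shock were not separated (-0.19, 95% interval -0.55 to 0.17, and -0.24, 95% interval -0.65 to 0.18).

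Htra2 overlaps Loxl3 and Aup1 in the RefSeq annotation. Loxl3 was also lower after Lipofectamine (-0.49, SE 0.13, adjusted p = 0.0477) and differed by -0.23 after heat shock (adjusted p = 0.301) and 0.03 after benzyl alcohol (adjusted p = 0.95). Aup1 differed by -0.19, -0.08 and -0.11 (adjusted p = 0.518, 0.737 and 0.774). Whether any Htra2 probe reads RNA of these neighbours was not tested.

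Diablo, which like Htra2 leaves the mitochondrion and binds inhibitor of apoptosis proteins, did not pass in any comparison of the full set of arrays without array weights. Its brighter probeset (1417683_at) read 9.14, 9.10 and 8.79 with Lipofectamine, 9.16, 9.08 and 9.13 with heat shock, 9.02, 8.84 and 8.93 with benzyl alcohol, and 8.96, 8.74, 9.24, 8.78 and 8.66 in control. The groups overlapped with control, whose arrays 1 and 3 were the high ones. The difference between heat shock and control was 0.25 (95% interval -0.03 to 0.53, adjusted p = 0.276). Without control arrays 1 and 3 it was 0.40 and passed (adjusted p = 0.0146), as it did with array weights (0.30, adjusted p = 0.0299). With array weights the difference after Lipofectamine passed too (0.32, adjusted p = 0.00292, against 0.13 and 0.692 without them). The dimmer probeset (1425768_at) lay between 6.12 and 6.47 in all 14 arrays.

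Fadd, the adaptor between death receptors and caspase-8, fell with Lipofectamine and had the tightest replicates of the 12 probesets (SD within groups of 0.0435). It read 8.62, 8.53 and 8.53 with Lipofectamine, 8.75, 8.70 and 8.74 with heat shock, 8.71, 8.78 and 8.80 with benzyl alcohol, and 8.90, 8.96, 8.95, 8.89 and 9.0 in control (1416888_at). Every treated array was below every control array, and the Lipofectamine arrays were the lowest of all. Lipofectamine lowered Fadd by 1.3-fold (-0.38, SE 0.0781, adjusted p = 0.0158). With Lipofectamine array 1 or 3 left out the adjusted p rose to 0.0629 and 0.0502. With control arrays 2, 4 and 5 left out together it was 0.0922, and with the replicate number as a block 0.185. Each of these ended the call. Heat shock differed from control by -0.21 (95% interval -0.38 to -0.04, adjusted p = 0.127) and benzyl alcohol by -0.18 (-0.34 to -0.02, adjusted p = 0.3), and neither passed. Although Lipofectamine and heat shock did not overlap, their difference of -0.17 did not pass either (adjusted p = 0.301), nor did that of 0.20 between benzyl alcohol and Lipofectamine (adjusted p = 0.141). The larger change with Lipofectamine is therefore not shown to differ from the other treatments.

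Casp8 encodes the initiator caspase that Fadd recruits. It read 9.56, 9.64 and 9.43 with Lipofectamine, 9.72, 9.52 and 9.43 with heat shock, 9.42, 9.38 and 9.36 with benzyl alcohol, and 10.06, 9.35, 9.66, 9.34 and 9.43 in control (1424552_at). Control arrays 1 and 3 were the highest controls, and the treated groups overlapped with control. The differences from control were -0.02, -0.01 and -0.18 after Lipofectamine, heat shock and benzyl alcohol, and none passed. Their 95% intervals ran from -0.35 to 0.30, from -0.34 to 0.31 and from -0.48 to 0.12. Without control arrays 2, 4 and 5 the difference after benzyl alcohol was -0.475 and passed (adjusted p = 0.033).

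Casp2 encodes an initiator caspase that is activated on a platform built around Pidd1, and it was highest with benzyl alcohol. Its probeset (1448165_at) read 9.63, 9.59 and 9.45 with Lipofectamine, 9.74, 9.75 and 9.63 with heat shock, 10.45, 10.27 and 10.07 with benzyl alcohol, and 9.65, 10.17, 9.80, 9.91 and 10.04 in control. The Lipofectamine arrays lay below control and the benzyl alcohol arrays reached above it, with an overlap at control array 2. No difference from control passed: it was -0.35 with Lipofectamine (95% interval -0.60 to -0.11, adjusted p = 0.0935), -0.21 with heat shock (-0.46 to 0.03, adjusted p = 0.285) and 0.35 with benzyl alcohol (0.10 to 0.60, adjusted p = 0.176). Control arrays 1 and 3 averaged 9.73 and the other controls 10.04. With all controls kept, array weights gave -0.31 with Lipofectamine (adjusted p = 0.00208) and -0.25 with heat shock (0.0466), and both passed. Without control arrays 1 and 3 the difference was -0.48 with Lipofectamine (adjusted p = 0.00349) and -0.34 with heat shock (0.0314), and without control array 1 alone the Lipofectamine value was -0.42 (0.0242). Without control arrays 2, 4 and 5 it was 0.53 with benzyl alcohol (0.0115).

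Benzyl alcohol exceeded Lipofectamine by 1.63-fold at Casp2 (0.70, SE 0.131, adjusted p = 0.00385), with no overlap, and the call held in all 23 settings (0.56 to 0.80). It exceeded heat shock by 1.47-fold (0.56, SE 0.131, adjusted p = 0.0214). That call was lost without heat shock array 1, 2 or 3 (adjusted p = 0.0633, 0.0705 and 0.0892) or benzyl alcohol array 1 (0.114), and after quantile normalization (0.44, adjusted p = 0.0528). The order of means was benzyl alcohol (10.26), control (9.92), heat shock (9.70) and Lipofectamine (9.56), and no neighbours in it differed by the test.

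**Figure D2:**
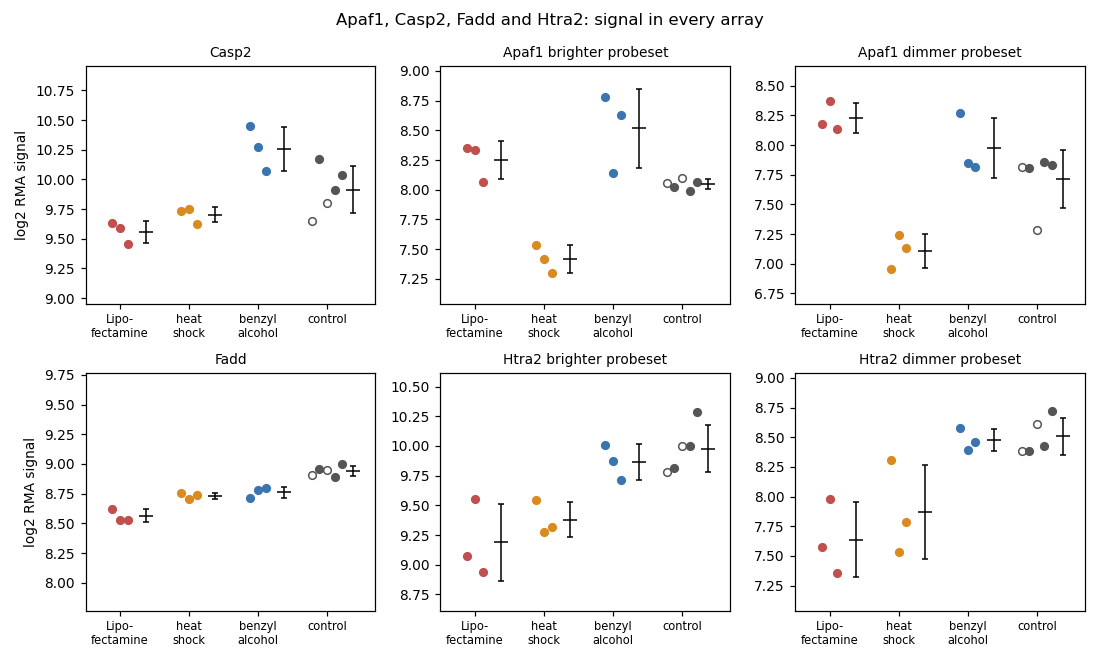
Log2 RMA signal of Casp2, Apaf1, Fadd and Htra2 in each array (y axis) by group (x axis), with the mean and SD of each group in black and control arrays 1 and 3 as open circles. The heat shock arrays of both Apaf1 probesets lie below all other arrays, Fadd is below control in all 9 treated arrays, and Htra2 is below control with Lipofectamine and heat shock.

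Casp6, an executioner caspase that cuts nuclear lamins, read 7.46, 7.72 and 7.36 with Lipofectamine, 7.32, 7.39 and 7.37 with heat shock, 7.33, 7.39 and 7.56 with benzyl alcohol, and 6.98, 7.60, 7.1, 7.71 and 7.53 in control (1415995_at). Its control arrays spread more widely than any treated group, with arrays 1 and 3 lowest. The differences from control were 0.13, -0.02 and 0.04 after Lipofectamine, heat shock and benzyl alcohol, with intervals that reached -0.36 and 0.47 at the widest. Without control arrays 2, 4 and 5 the difference after Lipofectamine was 0.48 and passed (adjusted p = 0.0492), with only the low control arrays 1 and 3 kept.

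**Figure D3:**
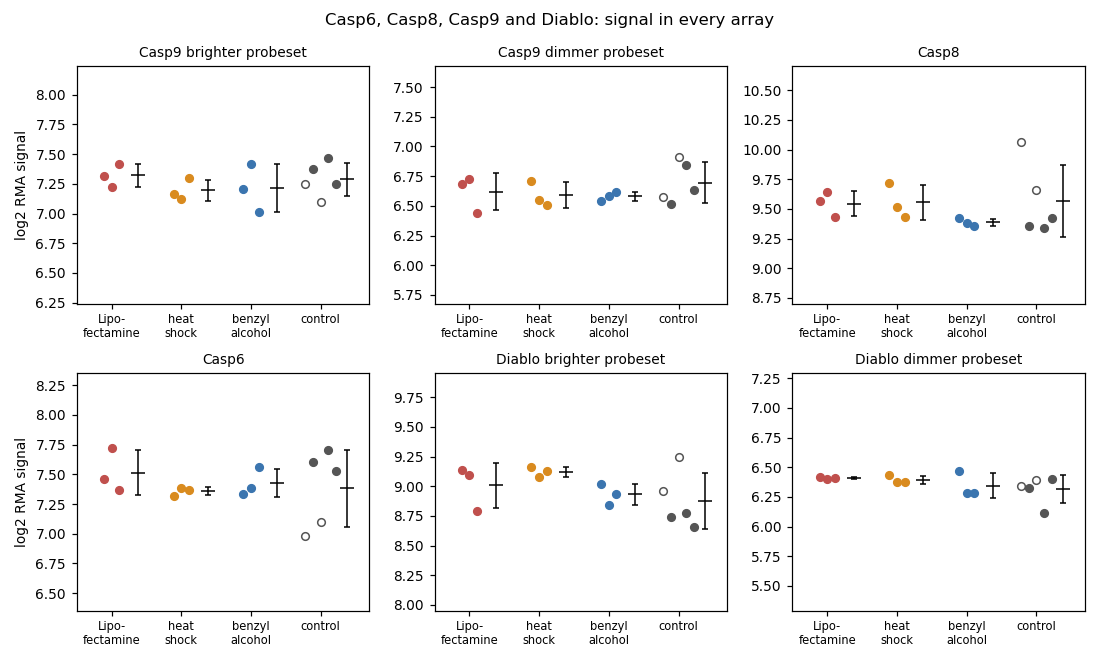
Log2 RMA signal of Casp6, Casp8, Casp9 and Diablo in each array (y axis) by group (x axis), with the mean and SD in black and control arrays 1 and 3 as open circles. The treated arrays overlap with control in all 6 panels, and in those of Casp6, Casp8, the brighter Casp9 probeset and the brighter Diablo probeset the open circles stand apart from the other controls, by a narrow margin for Casp9.

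Between treatments, 2 of the 12 probesets passed for Lipofectamine against heat shock, both higher (Apaf1). For benzyl alcohol against heat shock 3 passed, all higher (Casp2 and both of Apaf1), and for benzyl alcohol against Lipofectamine 3 passed, all higher (Casp2 and both of Htra2). Among all probesets the shares were 5.72% for Lipofectamine against heat shock (4.42% higher and 1.3% lower), 7.22% for benzyl alcohol against heat shock (5.44% higher and 1.78% lower) and 11.9% for benzyl alcohol against Lipofectamine (6.71% higher and 5.22% lower). Quantile normalization moved the share of higher ones among all calls to 65% for Lipofectamine against heat shock (77.2% as deposited) and to 59.5% for benzyl alcohol against heat shock (75.3%). The median differences of the 12 probesets were 0.001, 0.05 and -0.051, against -0.054, -0.021 and 0.037 over all probesets. Unadjusted p-values under 0.05 were found for 2, 5 and 4 of the 12, where 20.4%, 21.6% and 25.3% of all probesets had one. These comparisons share arrays with each other and with those against control.

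**Figure D4:**
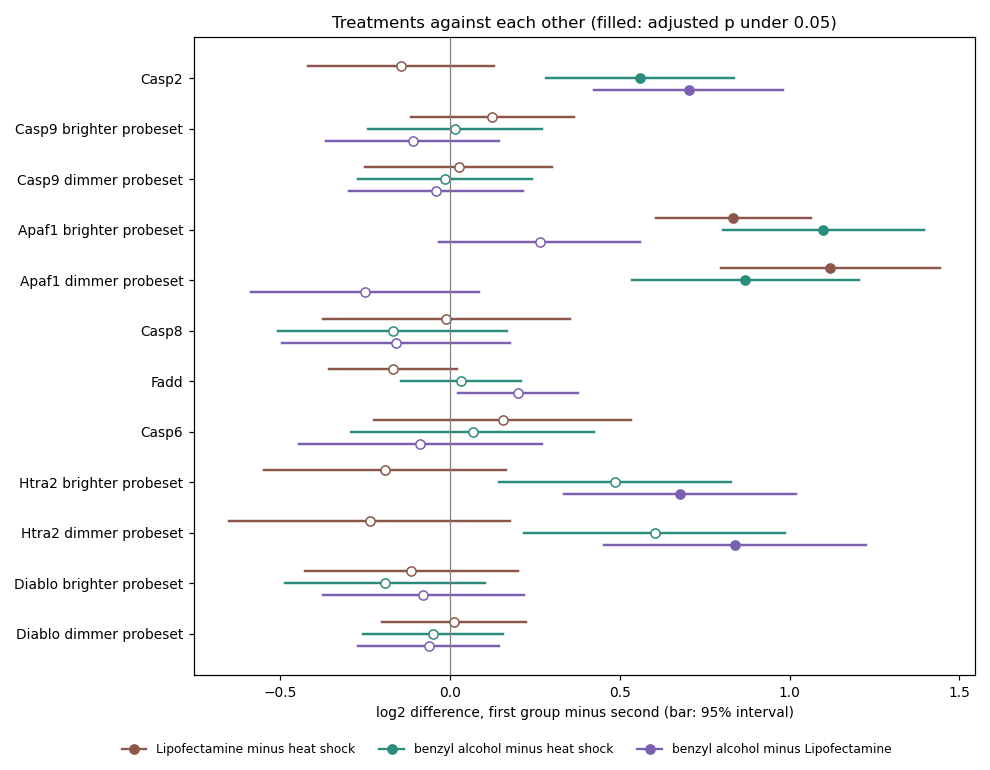
Log2 difference of each of the 12 probesets between pairs of treatments (x axis), with 95% intervals from limma and filled points for an adjusted p under 0.05. Apaf1 is filled in both comparisons with heat shock, Casp2 in both comparisons with benzyl alcohol, and Htra2 only for benzyl alcohol against Lipofectamine.

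Other genes of the pathway were read beside the 8. Of 39 listed genes 33 had a probeset here, and each was read from its brightest one: 14 other caspases, death receptors and adaptors, 5 of the inhibitor of apoptosis (IAP) family, 6 mitochondrial apoptosis proteins and 8 caspase substrates and effectors of dismantling. After Lipofectamine 1 was higher, 1 was lower and 31 did not pass, after heat shock the counts were 1, 1 and 31, and after benzyl alcohol they were 1, 0 and 32, counts to be read beside the 4.88%, 5.96% and 1.39% of all probesets called. Their median differences were -0.056, -0.083 and -0.084, against -0.019, 0.027 and 0.016 over all probesets. Dimmer probesets are not in these counts. A dimmer one of Rock1, in the substrate list, passed after Lipofectamine (0.455, SE 0.115, adjusted p = 0.039), while the brightest did not (0.22, adjusted p = 0.394). Between treatments, 2 of the 33 passed for Lipofectamine against heat shock (Xiap higher, Cflar lower), 3 for benzyl alcohol against heat shock (Xiap, Birc5 and Lmna, all higher) and 6 for benzyl alcohol against Lipofectamine (Pidd1, Cflar and Birc5 higher, Tnfrsf1a, Birc3 and Ghitm lower), where 5.72%, 7.22% and 11.9% of all probesets were called. Lmna, Pidd1, Birc3 and Ghitm are named here after their values were seen. Dimmer probesets did not always go the same way. For Lipofectamine against heat shock those of Cflar gave 0.85, 0.11 and -0.02, and none passed. For benzyl alcohol against heat shock they gave 1.23 (adjusted p = 0.0157), 0.80 (0.015) and 0.62 (0.0765). The dimmer Lmna probesets differed there by 0.18, 0.19 and -0.14, and none passed.

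With Lipofectamine the change in the receptor list was Tnfrsf1a, the main receptor for tumor necrosis factor. It read 10.71, 10.67 and 10.69 with Lipofectamine, against 10.53, 9.92, 10.39, 9.97 and 9.82 in control. The Lipofectamine arrays lay above all controls, of which arrays 1 and 3 were highest (0.56, SE 0.145, adjusted p = 0.0427). Without any 1 of the 3 Lipofectamine arrays, the 3 heat shock arrays or control arrays 2, 4 and 5, its adjusted p lay between 0.0652 and 0.162, and without control arrays 2, 4 and 5 together it was 0.364. With the replicate block it was 0.23, and its unadjusted limma p of 0.00178 missed the 0.001 of the methods. Birc5 (survivin), an IAP protein that also serves cell division, read 9.97, 10.12 and 9.85 with Lipofectamine, against 10.48, 11.14, 10.38, 11.15 and 11.03 in control. It was lower in every Lipofectamine array (-0.86, SE 0.173, adjusted p = 0.0141), and its adjusted p missed the threshold once array 1 (0.0745) or 3 (0.0715) of that group, or control arrays 2, 4 and 5 together (0.0562), were left out. The replicate block ended this call too (0.0583). Here too control arrays 1 and 3 stood apart, as the low ones.

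Cflar, an inactive relative of caspase-8 that competes with it for Fadd, was higher with heat shock and benzyl alcohol. Its brightest probeset read 8.68, 8.69 and 8.60 with heat shock, 9.0, 8.81 and 9.21 with benzyl alcohol, and 8.03, 8.41, 8.11, 8.01 and 8.20 in control. All treated arrays of these groups were above control. The difference was 0.50 with heat shock (SE 0.101, adjusted p = 0.0135), lost without heat shock array 1, 2 or 3 (0.0628, 0.0824 and 0.0553) or with the replicate block (0.137). It was 0.85 with benzyl alcohol (SE 0.108, adjusted p = 0.000735), held in all 23 settings. The other 3 Cflar probesets differed by 0.65 to 0.73 with benzyl alcohol and 1 of them passed (adjusted p = 0.0256). With heat shock they gave -0.53, -0.08 and 0.03 and none passed, so the Cflar probesets disagree there. With Lipofectamine the brightest probeset differed by -0.08 (adjusted p = 0.768).

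Xiap, the IAP protein that binds caspase-9 and is displaced by Diablo and Htra2, fell with heat shock at its brightest probeset. It read 8.25, 8.36 and 8.21 with heat shock, against 8.76, 8.85, 8.81, 9.01 and 9.07 in control (-0.63, SE 0.102, adjusted p = 0.00456). The heat shock arrays lay below all controls, and no single array ended the call, but the replicate block did (adjusted p = 0.0792). Its other 5 probesets were dimmer (means of 3.32 to 5.46), differed by -0.43 to 0.04 and did not pass. Of the 6 melanocyte markers, Sox10 and Tyr were also lower after heat shock (by 0.98 and 0.39 on the log2 scale), and the mean of the list was 11.64 to 11.74 in the heat shock arrays, against 11.90 to 12.48 in control. With Lipofectamine that mean was 11.77 to 11.92, which met the control range only at its low end, and none of the 6 passed (Mitf differed by -1.41, adjusted p = 0.0671). Of the 4 macrophage markers, Cd68 was higher after benzyl alcohol (0.90), and the mean of that list was 6.46 to 6.62 in the benzyl alcohol arrays, against 6.11 to 6.33 in control. After heat shock that mean was 6.40 to 6.53, also above control, with no marker passing. The part of these shifts in the results above was not tested.

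**Figure D5:**
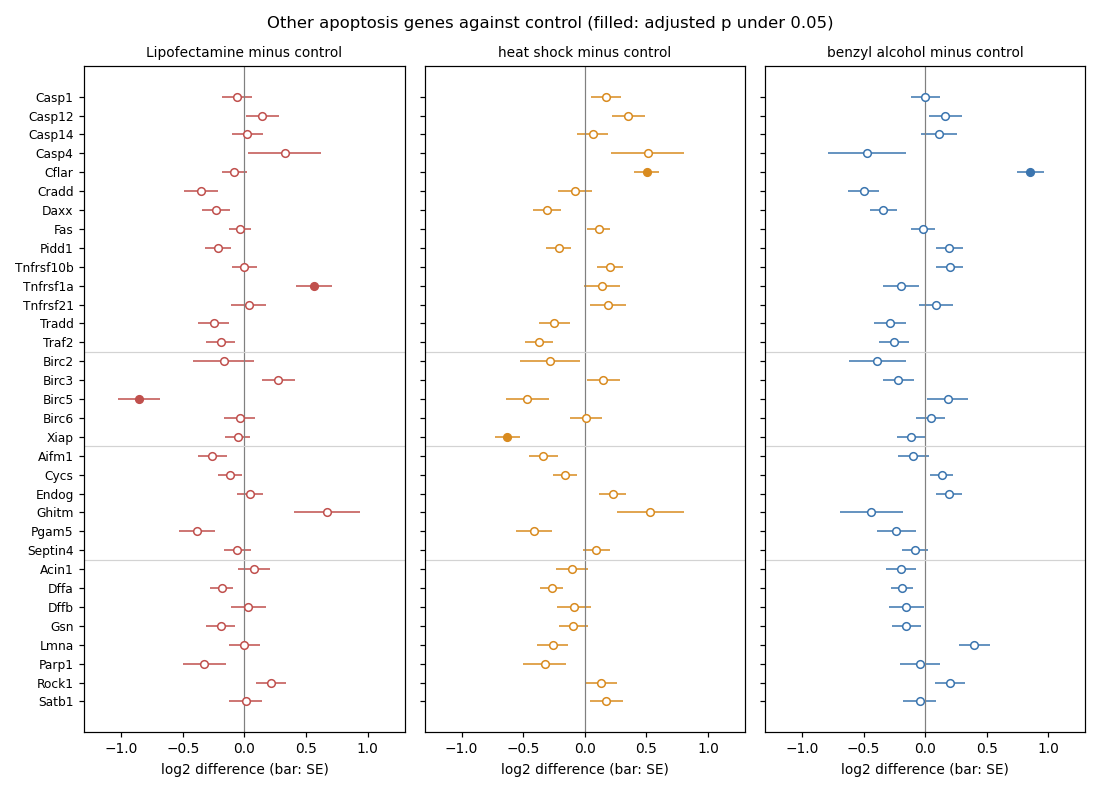
Log2 difference from control (x axis) of 33 other apoptosis genes after each treatment, 1 row per gene in 4 lists (from the top: caspases, receptors and adaptors, IAP family, mitochondrial proteins, substrates and effectors), with SE bars and filled points for an adjusted p under 0.05. Filled points are Tnfrsf1a and Birc5 with Lipofectamine, Cflar and Xiap with heat shock, and Cflar with benzyl alcohol.

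Over the 14 arrays, the genes whose signal followed the brighter Apaf1 probeset most closely were Tiparp (r = 0.932), Ints14 (0.923) and Prdm4 (0.914). Fadd was most like Tada2a (r = 0.916), Sass6 (0.908) and Atp2a2 (0.906), and the brighter Htra2 probeset most like Tacc3 (0.952), Prkci (0.948) and Fam207a (0.945). These are the highest correlations among the 20380 probesets with 1 symbol, leaving out those of the gene itself. The arrays share group differences, and the values are given as a description.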

How the data were processed

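RNA of B16-F10 cells was hybridised to 14 arrays, 5 from control and 3 from each treatment. Per the labels and the methods, the authors scanned with GCOS 1.2 and made the deposited log2 signals by RMA. The RMA version, and which arrays were processed together, are not given in the sources used here. The values were used without further normalization. The 64 control probesets were left out and 22626 tested, with no filter on dim ones. Genes were named from the platform annotation, where 20380 probesets had 1 symbol, 691 several and 1555 none, and only single symbols were used. Differences were tested with limma 3.58.1 in R 4.3.3 and adjusted by Benjamini-Hochberg over all probesets, with a threshold of 0.05. Comparisons among Lipofectamine, heat shock and control were fitted on 11 arrays, those with benzyl alcohol on all 14. The test was checked on simulated data with independent noise in each probeset and no split among the controls, so that check does not cover shifts shared by arrays. All probesets of the 8 genes were named, as were the listed pathway genes that passed against control and, for Apaf1, Fadd and Htra2, the 3 genes most correlated over arrays. The genes and lists were chosen with earlier results of these data known. The number of arrays limits the precision.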

Additional observations from a re-analysis of the deposited data

Results flagged for a closer look

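In the control group the dimmer Apaf1 probeset had 1 array far from the others. Control array 3 read 7.28 and the other controls 7.80 to 7.86, so that its gap to the nearest was 0.9 of the whole range. Control array 4 was low at the dimmer Diablo probeset (6.12, against 6.32 to 6.40), with a gap of 0.724 of the range. The critical value for 5 samples is 0.71, and chance flags about 1 in 20 groups. Differences between treatments passed the test for Apaf1 (Lipofectamine minus heat shock 0.83 and 1.12 on the log2 scale, benzyl alcohol minus heat shock 1.10 and 0.87), for Casp2 (benzyl alcohol minus heat shock 0.56, benzyl alcohol minus Lipofectamine 0.70) and for Htra2 (benzyl alcohol minus Lipofectamine 0.68 and 0.84). These values are those of the report. The arrays of these groups did not overlap in any of the 8 comparisons, which were picked because they passed. How many of all probesets show no overlap was not counted, so this adds no support.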

How the results depend on the processing

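The alternatives were the other set of arrays in the fit, a variance trend with intensity, array weights, quantile normalization of the deposited values, the dim probesets left out (those under the median of the means), the replicate number as a block, the threshold of the methods (unadjusted p under 0.001 in the F-test and the pairwise test), control arrays 1 and 3 or 2, 4 and 5 left out, and each array left out in turn. No called value changed its direction in any of them. Of the 12 probesets, the number passing after Lipofectamine was 4, and 7 with array weights, 0 with the replicate block and 0 to 5 with an array left out. The variance trend and the threshold of the methods each ended the call of the dimmer Apaf1 probeset there. After heat shock the number was 4, and 7 with array weights, 1 with the replicate block, 2 by the threshold of the methods, 3 with quantile normalization, 6 without control arrays 1 and 3, 1 without control arrays 2, 4 and 5 and 1 to 4 with an array left out. After benzyl alcohol it was 0, and 1 with array weights or quantile normalization, 2 without control arrays 2, 4 and 5 and 0 to 1 with an array left out. For benzyl alcohol against heat shock it was 3, and 5 with the other arrays in the fit, with array weights and without either set of control arrays, 2 with quantile normalization and 2 to 5 with an array left out. For benzyl alcohol against Lipofectamine it was 3, and 5 with array weights. Over all probesets, quantile normalization gave 1245 calls after heat shock (1349 as deposited) and 402 after benzyl alcohol (314). For benzyl alcohol against heat shock it gave 1651 (1633 as deposited). For the other settings no share of all probesets called is given here. Counts of the 12 there may rise or fall with those of all probesets, and are no result about these genes. The estimation of array weights stopped before it converged. Arrays with the same replicate number mostly did not deviate together: of 18 pairs with the same number 3 had correlated deviations above 0.1 (range -0.56 to 0.442), and 6 correlated best with their own number. With 3 arrays a treatment this cannot tell whether same-numbered arrays shared a day or a batch. Under quantile normalization the medians of all probesets moved by -0.0267 to 0.0206. Causes of these changes were not tested. With 3 arrays a treatment, differences near the threshold depend on single arrays, and transcripts whose probes share sequence cannot be separated.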
